A study of Sus scrofa with 16 samples.

Results

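The expression of 33 genes of the exocytosis machinery was examined in whole pituitaries of pigs with low and high feed conversion. The 33 were the genes whose symbol in the deposited comparison named a syntaxin, a syntaxin-binding protein, a VAMP, a SNAP, a synaptotagmin, a synaptotagmin-like protein, a complexin, a CADPS or an UNC13 gene, and which had at least 10 counts in at least 8 pigs. They were 33 of the 25880 genes in the count table, none was lost to the minimum, and all 33 were among the 13621 genes tested between the groups.

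The animals were 16 unrelated Złotnicka White gilts from different farms, a native breed, fed and housed alike at 1 test station and slaughtered at the same body weight. The labels give day 180 for each of them, while by the paper the age at the end of the test varied between pigs. Equal age of the groups is therefore not shown. The 8 LFC pigs had low and the 8 HFC pigs high feed conversion, the amount of feed taken per unit of weight gained. By the paper, the HFC pigs gained less weight per day, were longer on test and had more fat at several carcass points than the LFC pigs. The labels hold the feed conversion group under a tag named shear force, while its values name the feed conversion ratio. No pig was treated, the groups were formed by selecting pigs on the trait, and each library came from 1 whole pituitary, so that both lobes and all their cell types were mixed. In such tissue, fewer cells of a type and less RNA per cell cannot be told apart.

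Endocrine cells of the anterior pituitary store hormones in dense-core granules and release them when calcium enters the cell. Fusion of a granule with the cell membrane is driven by SNARE proteins, in which a VAMP on the granule zips together with a syntaxin and a SNAP on the cell membrane. Syntaxin-binding proteins of the Munc18 family hold the syntaxin ready, UNC13 and CADPS proteins prime the docked granule, synaptotagmins sense the calcium, and complexins clamp and release the assembled complex. Other SNAREs serve traffic between the Golgi, endosomes, lysosomes and autophagosomes.

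Each pig had 6010629 to 11794256 reads counted on genes, with medians of 7803047 in the LFC and 9027332 in the HFC pigs. The lowest count of a member in any pig was 7, for STX11. Of 12 marker genes of the hormone cells, 11 were found. They summed to 113070 to 210739 CPM in the LFC and 120784 to 241890 CPM in the HFC pigs. CPM are TMM-scaled counts per library size, the unit of all levels given here. These sums held opposite differences, 7 of the 11 being higher and 4 lower in the HFC pigs. PRL (prolactin) was higher, and POMC and CGA were lower, at an unadjusted p of at most 0.05 (edgeR's quasi-likelihood test). The log2 fold changes of PRL, POMC and CGA were 1.27, -1.23 and -0.56. The smallest Benjamini-Hochberg adjusted p of the 11 was 0.372. The libraries of 3 pigs stood apart. The slope of log2 expression on the log10 length of the gene in the genome, over 10857 other genes, was -0.34 in LFC replicate 4, -0.34 in LFC replicate 6 and -0.28 in HFC replicate 5, against -0.14 to 0.14 in the other 13 pigs. In these 3 libraries genes with long spans had relatively few reads. A further 2 libraries, LFC replicate 5 and HFC replicate 6, had the highest sums of posterior lobe glia markers, 1565 and 1562 CPM, against 13.9 to 692 CPM in the other 14. Of 7 such markers 5 were found, and most of both sums was 1 gene, GFAP, with 1487 and 1443 CPM. The myelin markers were also highest in these 2 libraries, 4574 and 1888 CPM, against 176 to 1229 CPM in the other 14. Results led by these libraries are also given without them.

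A gene was called when its adjusted p was 0.05 or less and its fold change 1.3 or more. None of the 33 genes was called (0, as 0% of all genes tested), and their smallest adjusted p was 0.372 by edgeR's quasi-likelihood test, Benjamini-Hochberg adjusted. With the same thresholds DESeq2 called 1 of the 33, SYT7, and 29 of all genes. At an unadjusted p of at most 0.05, 2 of the 33 were higher in the HFC pigs (SYT7 and UNC13B, 6.06%, against 7.03% of all genes) and 1 was lower (VAMP7, 3.03%, against 4.41% of all genes). Of all 1559 genes at that p, 61.4% were higher in the HFC pigs, and 46.0% with scaling to the library totals, while the same 3 of the 33 were past it under both scalings. Higher expression in HFC pigs was seen for 13 of the 33 at any size of difference (39.4%, against 47.9% of all genes). Over the 33, log2 fold changes, counted throughout as HFC minus LFC, lay between -0.34 and 0.54 with a median of -0.08, against -0.01 over all genes. Only SYT7 differed by 1.3-fold or more (3.03%, against 10.8% of all genes).

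**Figure D1:**
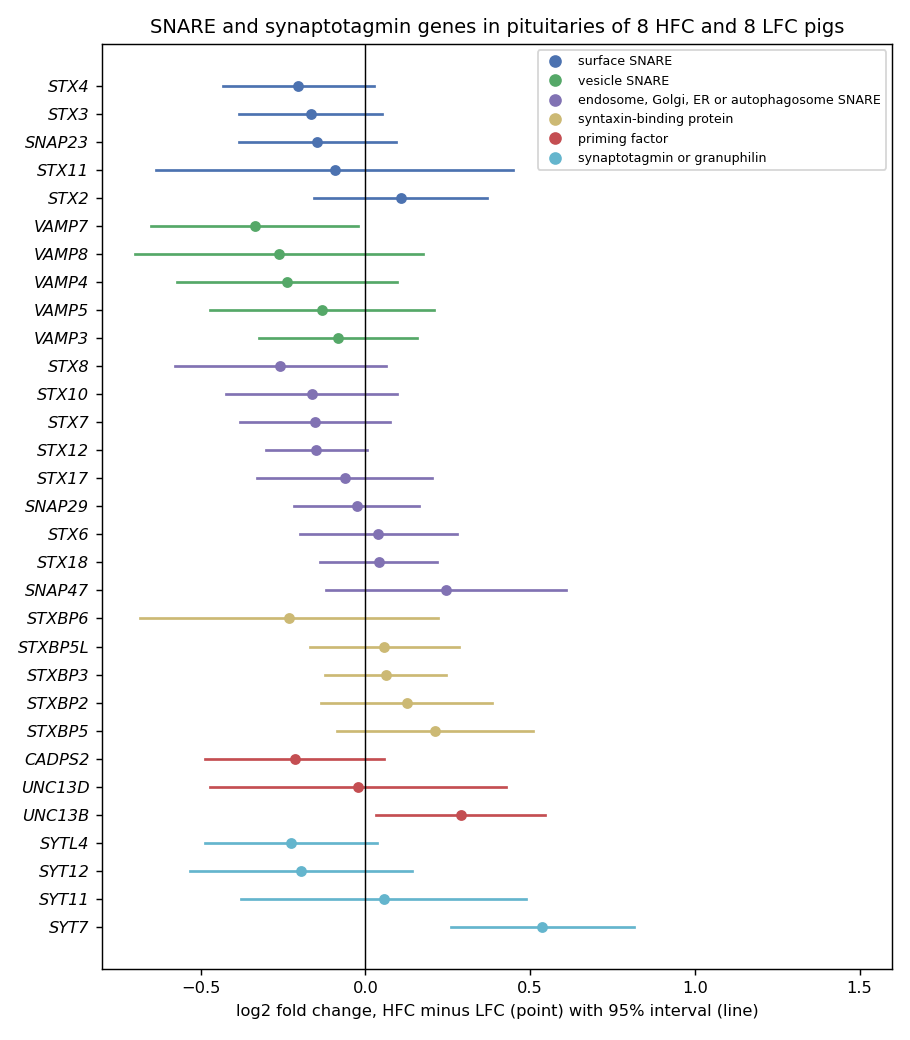
Log2 fold change (HFC minus LFC, horizontal axis) of each of 31 of the 33 genes with its 95% interval, coloured by the role of the protein. SYT7 (0.54), UNC13B (0.29) and VAMP7 (-0.34) have intervals that leave out 0, and all 5 vesicle SNAREs lie to the left of 0 in this fit.

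SYT7 had the largest difference of the 33. It encodes synaptotagmin 7, a calcium sensor of high affinity on dense-core granules and lysosomes, and lies on chromosome 2 from 9947737 to 10012517 of Sscrofa11.1 (ENSSSCG00000021906). Its expression was 61.2, 67.0 and 84.9 CPM in the lowest, median and highest LFC pig and 78.2, 92.0 and 166 CPM in the HFC pigs. All 8 HFC pigs were above the LFC median, which 2.75% of all genes tested showed. The groups overlapped only through HFC replicate 5 (78.2 CPM), which was below LFC replicate 2 (79.6 CPM) and LFC replicate 4 (84.9 CPM). The means were 70.4 ± 8.08 CPM in the LFC and 102 ± 27.9 CPM in the HFC pigs (SD, n = 8 each), a 1.45-fold difference. The log2 fold change was 0.54 ± 0.13 (SE), with a 95% interval of 0.26 to 0.82, at an unadjusted p of 0.000718, which was rank 23 of all genes tested. Over all genes the p after Benjamini-Hochberg adjustment was 0.372 in edgeR's quasi-likelihood test and 0.0462 in DESeq2. The HFC values were led by replicate 3 with 166 CPM, the next being 113 CPM, and without this pig the log2 fold change was 0.40.

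The other 2 synaptotagmins and the granuphilin had intervals that included 0. SYTL4 (granuphilin), which binds Rab27 and docks granules at the cell membrane, was at 69.6, 100.2 and 132 CPM in the lowest, median and highest LFC pig and at 71.6, 87.2 and 102 CPM in HFC pigs, and the log2 fold change was -0.23 ± 0.12 (SE). SYT12, a synaptotagmin that does not bind calcium, had a log2 fold change of -0.20 ± 0.16 (SE), and 1 of 8 HFC pigs was above the LFC median. SYT11, likewise without calcium binding, had a log2 fold change of 0.06 ± 0.21 (SE). Its highest values were in the 2 libraries with the most posterior lobe glia markers, 168 CPM in LFC replicate 5 and 198 CPM in HFC replicate 6, against 59.5 to 126 CPM in the other 14. SYT11 was the only one of the 33 with these 2 libraries on top (3.03%, against 4.33% of all genes), and the part of the lobe in its level was not tested. Without them its log2 fold change was 0.0063 ± 0.15 (SE). The SYT7 values of the same 2 libraries, 65.3 and 89.3 CPM, lay within those of the other 14.

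**Figure D2:**
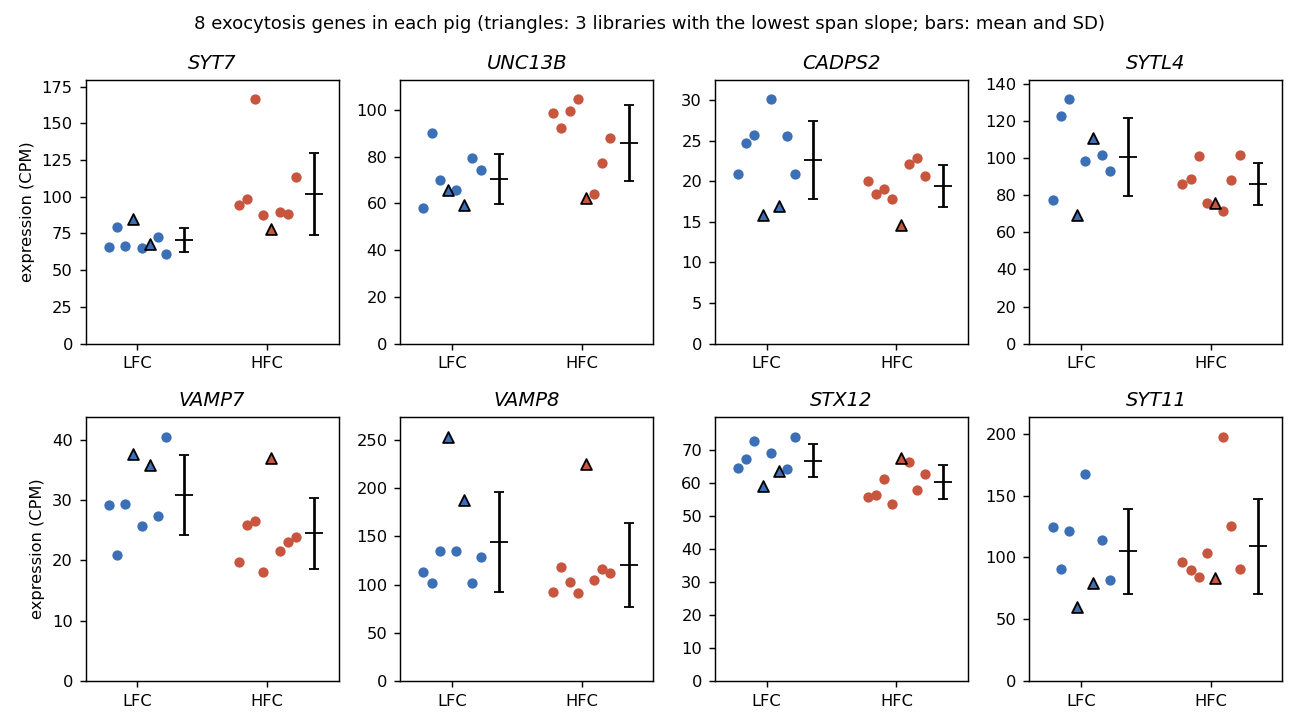
Expression in CPM (vertical axis, from 0) of 8 of the genes in each LFC and HFC pig, with the mean and SD of each group as bars and the 3 libraries with few reads on long genes as triangles. The triangles lie at the bottom for CADPS2 and at the top for VAMP8, whereas for SYT7 they lie at 68.0 to 84.9 CPM, inside the range of the other 13 pigs.

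Of the 3 priming factors, UNC13B was higher in the HFC pigs at an unadjusted p of 0.0296. It encodes a Munc13 protein, which opens syntaxin so that the SNARE complex can form, and lies on chromosome 1 from 235918468 to 236158244 (ENSSSCG00000005305). Its expression was 58.2, 67.9 and 90.3 CPM in the lowest, median and highest LFC pig and 62.4, 90.3 and 105 CPM in the HFC pigs. The groups overlapped over most of their range, and 6 of 8 HFC pigs were above the LFC median. On the log2 scale the difference was 0.29 ± 0.12 (SE), and by edgeR's quasi-likelihood test, Benjamini-Hochberg adjusted, its p was 0.423. It was 0.12 with the span slope of each pig as a covariate, where the unadjusted p was no longer at most 0.05. UNC13D, the Munc13 protein of blood cell granules, had 3.71 ± 0.90 CPM in the LFC and 3.67 ± 1.09 CPM in the HFC pigs (SD, n = 8 each). CADPS2, which primes dense-core granules, was at 15.8, 22.8 and 30.1 CPM in the LFC and at 14.7, 19.5 and 22.9 CPM in HFC pigs, the log2 fold change being -0.21 ± 0.13 (SE). In CADPS2 too, 1 of 8 HFC pigs was above the LFC median.

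All 5 vesicle SNAREs had lower expression in HFC, log2 fold changes being -0.34 to -0.08 with a median of -0.24, and 1 of them, VAMP7, was past an unadjusted p of 0.05. With the span slope of each pig as a covariate, VAMP5 and VAMP8 were on the other side of 0 and the median was -0.02. With 1 surrogate variable, a hidden factor estimated from the expression of all genes, 3 of the 5 were higher in HFC and the median was 0.036. Without LFC replicate 4 alone all 5 were lower and the median was -0.087. VAMP7 takes part in the fusion of late endosomes and lysosomes with other membranes and lies on chromosome X from 125863273 to 125917231 (ENSSSCG00000029615). Its expression was 20.8, 29.2 and 40.5 CPM in the lowest, median and highest LFC pig and 18.1, 23.5 and 37.0 CPM in the HFC pigs. Only HFC replicate 5 was above the LFC median, and the other 7 HFC pigs reached 26.5 CPM. It had a log2 fold change of -0.34 ± 0.15 (SE), at an unadjusted p of 0.0375 that became 0.429 when Benjamini-Hochberg adjusted (edgeR's quasi-likelihood test).

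VAMP8 and VAMP5 followed the 3 libraries that stood apart. VAMP8 (endobrevin), a SNARE of endosomes and of regulated secretion in several glands and blood cells, was at 188, 226 and 254 CPM in them and at 91.6 to 135 CPM in the other 13 pigs. Its log2 fold change was -0.26 ± 0.21 (SE) over all pigs and -0.17 ± 0.09 (SE) without the 3. Leaving out 1 of them gave -0.087 (LFC replicate 4) or -0.43 at an unadjusted p of 0.0214 (HFC replicate 5). VAMP5 (myobrevin) ends 2.62 kb from VAMP8 on chromosome 3, and was at 33.1 to 37.0 CPM in the 3 libraries and at 16 to 26.1 CPM in the others. On the log2 scale VAMP5 differed by -0.13 ± 0.16 (SE) over all pigs and -0.080 ± 0.11 (SE) without the 3. VAMP4, which serves the trans-Golgi network and immature granules, had a log2 fold change of -0.24 ± 0.16 (SE) over all pigs and -0.23 ± 0.10 (SE) without the 3. VAMP3 (cellubrevin), a SNARE of recycling endosomes, had -0.08 ± 0.11 (SE) and 0.04 ± 0.10 (SE), so its sign depended on these libraries.

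The 6 SNAREs of the cell membrane had log2 fold changes with a median of -0.12, 2 of them higher and 4 lower in the HFC pigs, and 0 were past an unadjusted p of 0.05. STX4, the syntaxin of insulin-regulated and constitutive traffic to the cell surface, was at 14.2, 17.5 and 21.7 CPM in the LFC and at 12.2, 15.8 and 17.3 CPM in the HFC pigs. With STX4 0 of 8 HFC pigs were above the LFC median, though the highest of them, 17.3 CPM, was just below it. At most 1 of 8 above it was seen in 15.6% of all genes tested, and the share with 0 of 8 was not counted. The log2 fold change of STX4 was -0.20 ± 0.11 (SE), or -0.12 ± 0.10 (SE) without the 3 libraries. STX3, which serves apical and granule fusion, had -0.17, SNAP23, the widely expressed relative of SNAP25, had -0.15, STX2 had 0.11 and STX11, a syntaxin of lymphocyte granules at 0.78 to 2.58 CPM, had -0.09.

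Counted over all classes, 10 of the 33 genes had at most 1 of 8 HFC pigs above the LFC median (30.3%, against 15.6% of all genes tested). They were STX3, STX4, STX7, STX10, SNAP23, VAMP4, VAMP7, VAMP8, SYT12 and CADPS2. Of these 10 genes 8 were SNAREs, as were 20 of all 33. In 6 of these 10 genes, the HFC pig above the LFC median was replicate 5, a library that stood apart. In the other direction 1 gene, SYT7, had all 8 above it (3.03%, against 2.75%).

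Among the 9 SNAREs of endosomes, Golgi, endoplasmic reticulum and autophagosomes, 6 were lower and 3 higher in HFC, log2 fold changes being -0.26 to 0.24 with a median of -0.06 and 0 genes past an unadjusted p of 0.05. STX8, a late endosome syntaxin, was at 28.7, 41.9 and 60.9 CPM in the lowest, median and highest LFC pig and at 27.7, 35.1 and 52.2 CPM in HFC pigs, the log2 fold change being -0.26 ± 0.15 (SE). The 52.2 to 60.9 CPM were those of the 3 libraries, and the other 13 reached 48.2 CPM. Without the 3 the log2 fold change was -0.19 ± 0.12 (SE). STX12, a syntaxin of recycling endosomes, had the smallest standard error of the 9. Its expression was 58.9, 65.7 and 73.9 CPM in the LFC and 53.5, 59.5 and 67.5 CPM in the HFC pigs, with 2 of 8 HFC pigs above the LFC median. The log2 fold change was -0.15 ± 0.07 (SE) at an unadjusted p of 0.0561, and -0.21 ± 0.07 (SE) at an unadjusted p of 0.00608 without the 3 libraries. STX7, the partner of STX8 on late endosomes, had -0.15 and STX10, a trans-Golgi syntaxin, had -0.16, or -0.15 without the 3 libraries. STX17 and SNAP29, which join autophagosomes to lysosomes, had -0.06 and -0.03, and STX6 of the trans-Golgi network and STX18 of the endoplasmic reticulum both had 0.04. SNAP47, a relative of SNAP25 on inner membranes, was at 2.91 to 6.06 CPM in the LFC and 4.24 to 7.08 CPM in HFC pigs, and the log2 fold change was 0.24 ± 0.17 (SE).

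Expression of 5 of the 6 syntaxin-binding proteins was higher in HFC pigs, the median log2 fold change being 0.09 and 0 genes past an unadjusted p of 0.05. With the span slope as a covariate 3 of the 6 were higher (median 0.028), and with 1 surrogate variable 3 of the 6 (median 0.0056). STXBP2 and STXBP3, the Munc18 proteins of non-neuronal cells, had 0.13 and 0.06. The tomosyns STXBP5 and STXBP5L, which occupy syntaxin and SNAP in place of a VAMP, had 0.21 and 0.06, and STXBP6 (amisyn), which acts in a similar way, had -0.23 ± 0.22 (SE). Set by role, 15 of the 20 SNAREs were lower in the HFC pigs, with a median of -0.14, while 8 of the 13 regulators were higher, with a median of 0.06. The SNAREs that were lower numbered 13 without the 3 libraries, 10 with the span slope as a covariate and 7 with 1 surrogate variable, where the median was 0.031. The regulators that were higher numbered 7 without the 3 libraries, 6 with the span slope (median -0.0028) and 6 with 1 surrogate variable (median -0.0032). The directions by role thus depended on the fit. No test was made of the difference between the roles.

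**Figure D3:**
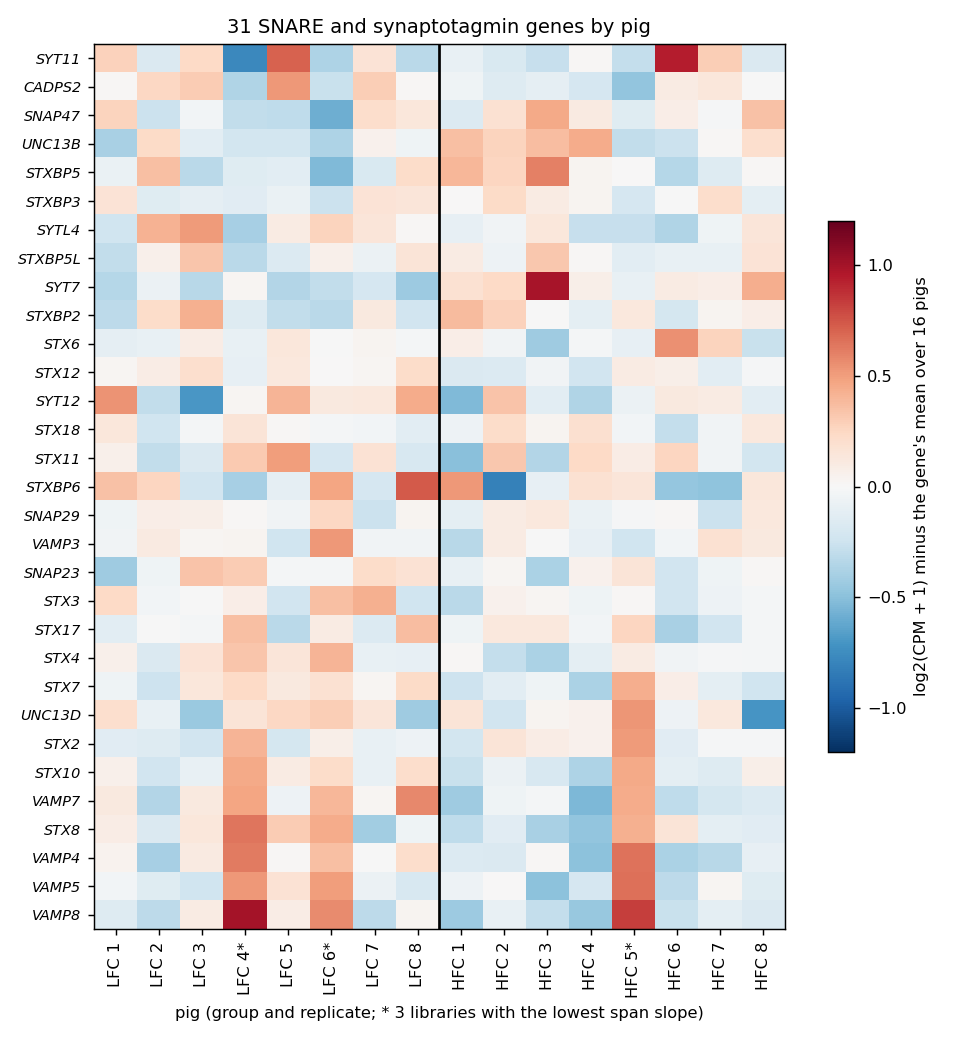
Expression of 31 of the 33 genes (rows) in the 16 pigs (columns, LFC left and HFC right of the line) as log2(CPM + 1) minus the mean of the gene, with the 3 libraries that stood apart marked by asterisks. The rows are ordered by the difference between these 3 and the other 13 libraries, and the marked columns run from blue at SYT11 (-0.59) to red at VAMP8 (0.99) in both groups.

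The 3 libraries were the highest 3 of all 16 for 5 of the 33 genes (STX8, STX10, VAMP4, VAMP5 and VAMP8, 15.2%, against 10.2% of all genes tested) and the lowest 3 for another 3 (among them CADPS2, 9.09%, against 10%). The blood markers, 2 of 3 found, summed to 651 to 1427 CPM in them and 63.1 to 823 CPM in the other 13 pigs, and both were lower in the HFC pigs. All 5 macrophage markers were also lower in the HFC pigs, with sums of 177 to 294 CPM in the LFC and 97.1 to 328 CPM in the HFC pigs, and none of the marker lists was at 0. Their part in the levels of VAMP8, UNC13D and STX11, which blood cells also express, was not tested. Genes of the 33 at or below the median span of 54.0 kb were higher in the HFC pigs in 4 of 17 cases, with a median log2 fold change of -0.13, and those above it in 9 of 16 cases, with a median of 0.04.

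Without the 3 libraries, 6 LFC and 7 HFC pigs remained and 8 of the 33 genes were past an unadjusted p of 0.05. Of these, 3 genes including SYT7 and UNC13B were higher in the HFC pigs (9.09% against 7.69% of 13732 genes tested) and VAMP7, STX12, CADPS2, VAMP4 and STX7 were lower (15.2% against 6.66%). SYT7 then had 61.2 to 79.6 CPM in the LFC and 87.4 to 166 CPM in the HFC pigs. These ranges did not overlap, which 0.197% of all genes tested showed in that direction. The log2 fold change of SYT7 was 0.63 ± 0.14 (SE), and its p of 0.227, Benjamini-Hochberg adjusted, was still the smallest of the 33 by edgeR's quasi-likelihood test, so that again 0 genes were called. CADPS2 was at 20.8 to 30.1 CPM in the 6 LFC and 17.8 to 22.9 CPM in the 7 HFC pigs (log2 fold change -0.29 ± 0.10, SE). The signs of VAMP3, SNAP29 and SYT11 turned.

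**Figure D4:**
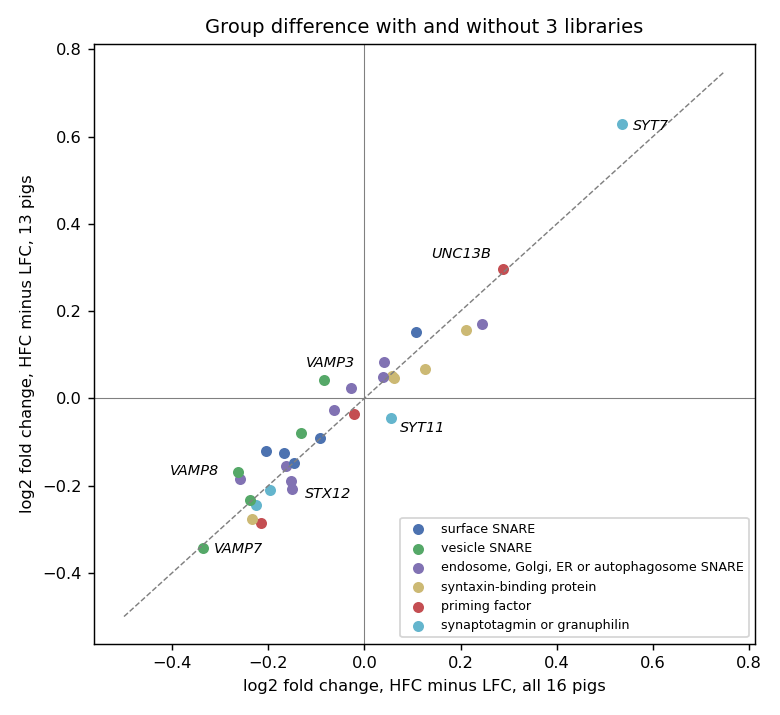
Log2 fold change of 31 of the 33 genes over all 16 pigs (horizontal axis) and over the 13 pigs left without the 3 libraries (vertical axis), with equality as a dashed line. SYT7 moved from 0.54 to 0.63, STX12 from -0.15 to -0.21 and VAMP8 from -0.26 to -0.17.

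The SNAREs and sensors best known from regulated secretion were mostly outside the 33, since the deposited comparison gave them no symbol or no entry. By a gene name table, 25 further genes of the same families with enough counts were found, and 4 more, CPLX3, CPLX4, SYT6 and SYT8, had 10 counts in at most 3 pigs. SNAP25, the cell membrane SNARE of neuroendocrine cells, was at 278, 378 and 429 CPM in the lowest, median and highest LFC pig and at 284, 354 and 438 CPM in the HFC pigs. Its groups overlapped over nearly their whole range, and the 95% interval of the log2 fold change, -0.07, was -0.30 to 0.17. VAMP2, the granule SNARE that pairs with SNAP25, was at 96.2, 136 and 177 CPM in the LFC and at 125, 156 and 183 CPM in HFC pigs, and the log2 fold change was 0.16 with an interval of -0.08 to 0.41. STX1A, a syntaxin of regulated secretion, was at 2.44 to 4.85 CPM in the LFC and 2.92 to 4.97 CPM in HFC pigs, and the log2 fold change was 0.04 ± 0.18 (SE).

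SYT1, the fast calcium sensor of neurons, was at 19.9, 39.0 and 93.9 CPM in the LFC and at 25.5, 33.5 and 75.6 CPM in the HFC pigs. The 93.9 and 75.6 CPM were those of the 2 libraries with the most posterior lobe glia markers, and the other 14 reached 43.0 CPM. On the log2 scale SYT1 differed by -0.15 ± 0.28 (SE) over all pigs, -0.093 ± 0.16 (SE) without both, and 0.14 without LFC replicate 5 alone, so that 1 library turned its sign. SYT4, a synaptotagmin of dense-core granules, had a log2 fold change of 0.04 ± 0.16 (SE) and SYT5, a granule calcium sensor, had 0.21 ± 0.13 (SE). The complexins CPLX1 and CPLX2 had -0.12 ± 0.17 (SE) and 0.11 ± 0.10 (SE). In none of these 8 genes did the groups separate. The share of all genes tested that separated over all pigs was not counted. Without the 3 libraries that stood apart, it was 0.197% for higher and 0.175% for lower expression in HFC pigs. With separation so rare there, its absence is no result about these 8 genes.

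**Figure D5:**
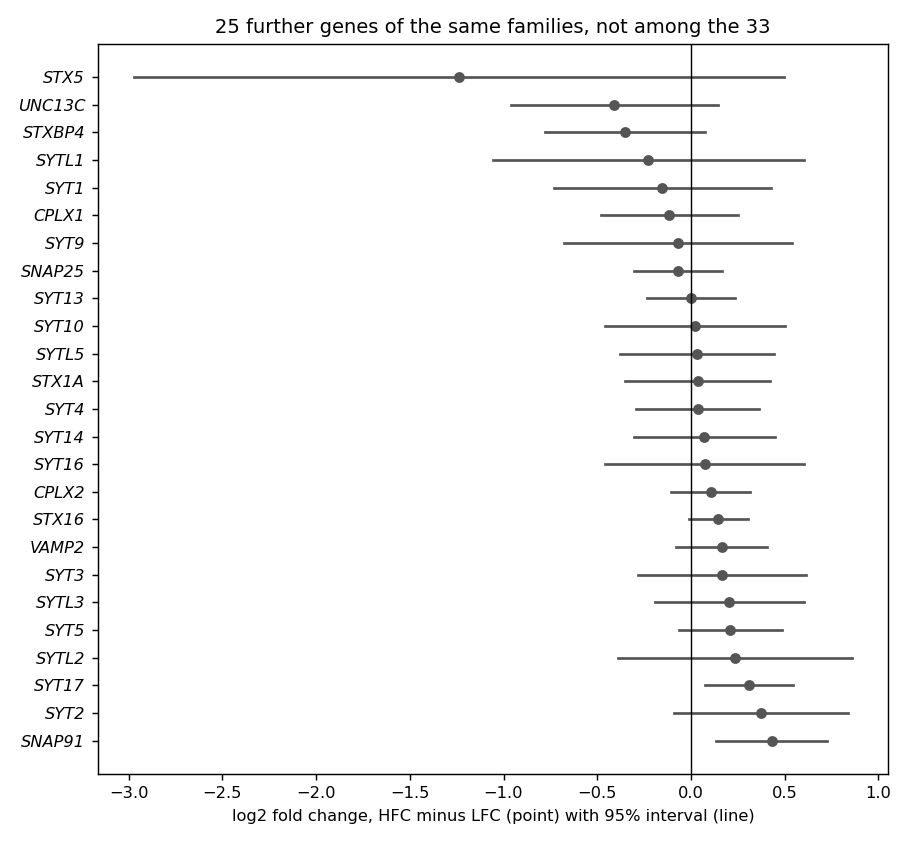
Log2 fold change (HFC minus LFC, horizontal axis) of the 25 further genes of the same families with 95% intervals. SNAP91 (0.43) and SYT17 (0.31) have intervals that leave out 0, and STX5 (-1.24) has the widest interval.

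Of the 25, 16 were higher and 9 lower in HFC pigs (median log2 fold change 0.04), and 2 were past an unadjusted p of 0.05, both higher (8%, against 7.03% of all genes tested). A share so near that of all genes is no result about the 25. SNAP91, whose symbol matches the family although it encodes a clathrin adaptor and no SNARE, was at 38.9 to 62.9 CPM in the LFC and 51.9 to 97.3 CPM in the HFC pigs (log2 fold change 0.43 ± 0.14, SE). SYT17, a synaptotagmin that does not bind calcium, was at 18.9 to 24.0 CPM in the LFC and 19.4 to 35.0 CPM in the HFC pigs (0.31 ± 0.11, SE). By edgeR's quasi-likelihood test, Benjamini-Hochberg adjusted, both had a p of 0.413. STX5, a Golgi syntaxin, ranged from 0 to 32.7 CPM and had its highest values, 20.9 to 32.7 CPM, in the 3 libraries that stood apart. Its log2 fold change was -1.24 ± 0.83 (SE) over all pigs and -1.02 ± 0.85 (SE) without the 3. Leaving out 1 of them gave -0.95 ± 0.86 (SE) for LFC replicate 4 and -0.83 ± 0.85 (SE) for LFC replicate 6. For HFC replicate 5 it gave -1.91 ± 0.83 (SE), at an unadjusted p of 0.0342 by the same test.

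A list of 87 other exocytosis genes was examined beside them, and 82 were tested. Of these, 45 were higher and 37 lower in HFC pigs (median log2 fold change 0.03), and 5 were higher (6.10%, against 7.03% of all genes tested) and 1 lower (1.22%, against 4.41%) at an unadjusted p of at most 0.05 (by edgeR's quasi-likelihood test, Benjamini-Hochberg adjusted, the smallest p was 0.413). Both shares were below those of all genes, and 0 of the 82 were at that p with the span slope or 1 surrogate variable as a covariate. Under these 2 fits, 651 and 625 of all 13621 genes tested were at that p. Of the 6, BSN (bassoon), a scaffold of the active zone, had the largest log2 fold change, 0.76 ± 0.27 (SE). The others were SYN3 (a synapsin, 0.60), ERC1 (an active zone scaffold, 0.37), MADD (an activator of Rab3, 0.29), SCAMP2 (a secretory carrier membrane protein, 0.20) and SNAPIN (a SNAP25 binding protein, -0.26). Over all 82 the largest difference was that of SV2B, a glycoprotein of the vesicle membrane, at -1.10 ± 0.57 (SE) and an unadjusted p of 0.0724, with 0.249 to 10.6 CPM in the LFC and 0.542 to 4.58 CPM in the HFC pigs. The difference of SV2B was -0.60 without LFC replicate 5, -1.53 without HFC replicate 6 and -1.04 without both. By sublist, 12 of 15 active zone genes, 10 of 16 vesicle membrane genes, 8 of 15 Rab3 and Rab27 genes and effectors, 5 of 9 exocyst subunits, 4 of 4 extended synaptotagmins and taxilins and 2 of 4 genes of SNARE disassembly were higher in the HFC pigs. Of the 19 other SNAREs and SNARE partners, 15 were lower, with a median log2 fold change of -0.08. These directions are those of the fit without covariates, in which 6526 of all 13621 genes tested were higher and 7095 lower. They were not counted by sublist under the other fits, and no test was made of them. NSF, the ATPase that takes SNARE complexes apart, had 0.15 ± 0.13 (SE).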

How the data were processed

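Whole pituitary RNA of 16 gilts was sequenced without strand information. The authors deposited raw counts of reads per gene and pig, made from trimmed reads on Sscrofa11.1 and its Ensembl genes. They also deposited their own comparison of the groups, with a mean signal after size factors, a ratio, its log2 value and p-values for 10892 genes. Of the deposited comparison only symbols and positions were used. The members and lists were chosen with earlier results of these data known.

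Groups and replicate numbers were those of the labels. Genes were named by the deposited symbols, then by a gene name table, then by position on the same assembly with at least 50% overlap of both spans (326 genes). HFC and LFC pigs were compared over all 16 libraries by the quasi-likelihood test of edgeR 4.0.16 (R 4.3.3), after TMM scaling and filtering on expression, and p was Benjamini-Hochberg adjusted over all 13621 genes. Standard errors were taken from the F statistic, and intervals cover 95%. The test was checked on simulated data. CPM are not per length, so levels of different genes were not compared. The common coefficient of variation between pigs was 24.9%. Libraries within a group differed beyond counting noise (chi-square per degree of freedom 11.9 to 91.0).

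Named with values were all members by role, a core secretory list, every member or listed gene with an unadjusted p up to 0.05 and the largest difference in each class. Alternatives were DESeq2 1.42.0, limma 3.58.1 voom with quality weights, scaling by RLE, by upper quartile or by library total, other count filters, other thresholds, a replicate block, the span slope or 1 surrogate variable (sva 3.50.0) as a covariate, robust estimation and each pig left out. Leaving out the 3 libraries of lowest span slope or the 2 of highest glia level was added after seeing the data. Python 3.11.15 and numpy 2.4.6 were used for correlations. Sequences of the genes were not used here. The values of 2 of the 33 genes are not reported here, and they stay in the counts.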

Additional observations from a re-analysis of the deposited data

Results flagged for a closer look

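Within a group of 8 pigs, 1 pig lay far from the others in 10 of the 62 combinations of gene and group examined, its gap to the next pig being above the 95% critical value of Dixon for the share of the whole range. Chance gives about 1 in 20 where combinations are independent, which these were not, since 6 of the 10 were in HFC replicate 5 and 8 in the 3 libraries that stood apart. HFC replicate 5 was above the other HFC pigs for VAMP8 (226 CPM, next 118), VAMP4 (57.1, next 36.5), VAMP5 (37.0, next 23.4), VAMP7 (37.0, next 26.5), STX10 (35.1, next 26.6) and STX2 (19.5, next 15.1). LFC replicate 4 was above the other LFC pigs for STX2 (18.1 CPM, next 14.2) and LFC replicate 6 for VAMP3 (24.1 CPM, next 18.0). The remaining values were SYT7 in HFC replicate 3 (166 CPM, next 113) and SYT11 in HFC replicate 6 (198 CPM, next 126), the latter a library with high posterior lobe glia markers.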

How the results depend on the processing

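The direction of SYT7 and an unadjusted p of at most 0.05 were kept in all 30 alternatives, with log2 fold changes of 0.40 to 0.63 and adjusted p between 0.0462 and 0.960, but only DESeq2 (1 of the 33 and 29 of all genes) and an unadjusted p of 0.01 with the fold change minimum (1) called it. UNC13B kept its direction in all 30 and its p in 24, and VAMP7 in 30 and 18. The number of the 33 at an unadjusted p of at most 0.05, 3 as reported, was 7 in limma voom, 5 with 1 surrogate variable, 8 without the 3 libraries, 1 with a p of at most 0.01 and 1 with the fold change minimum added. Leaving out 1 pig gave 1 (HFC replicate 1 or HFC replicate 4) to 11 (HFC replicate 5), with 5 without LFC replicate 2 or LFC replicate 4. With the span slope as a covariate they were SYT7, CADPS2, STX2 and SYTL4, so that UNC13B and VAMP7 were lost. Of the other exocytosis genes, 6 as reported, 14 passed in limma voom, 2 with total library scaling, 0 with the span slope, 0 with 1 surrogate variable, 12 without the 3 libraries and 2 to 19 without 1 pig. Of all 13621 genes tested, 1559 as reported, 2540 passed in limma voom, 651 with the span slope and 625 with 1 surrogate variable. Without the 3 libraries 1971 of 13732 passed. Without 1 pig 989 to 3514 passed, the latter of 13697 without HFC replicate 5. The number of the 33 higher in the HFC pigs, 13 as reported, was 11 to 19.

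VAMP8 turned to 0.082 with the span slope and 0.16 with 1 surrogate variable. SYT11 turned to -0.059 in limma voom, -0.0092 with the span slope, -0.081 with 1 surrogate variable and -0.044 without the 3 libraries, and ranged from -0.12 (without HFC replicate 6) to 0.19 without 1 pig, with -0.020 without LFC replicate 4. The causes were not tested. The pigs were unrelated and the replicate numbers paired no samples: same-numbered pigs correlated at -0.34 to 0.37, over 0.1 in 3 of 8 pairs, and 0 of 8 LFC pigs correlated best with their own number. With a replicate block 2 of the 33 (SYT7 and UNC13B) were at an unadjusted p of at most 0.05.

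The genes with the fewest reads were STX11, SNAP47 and UNC13D, whose lowest counts in a pig were 7, 17 and 19, with standard errors of 0.26, 0.17 and 0.21, against 0.21 for VAMP8 with at least 770 reads. Differences small against these standard errors could not be told from 0 with these pigs. The parts of read depth and of the spread between pigs in these errors were not tested. The groups were selected on a trait and not assigned, so whatever else differed between the selected pigs cannot be told apart from feed conversion.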

Other observations

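Expression of SYT7 was set against that of the 11 hormone-cell markers over the 16 pigs, on log2(CPM + 1), a choice made after the values of SYT7 were seen. With PRL (prolactin) Pearson's r was 0.72 and Spearman's rho 0.75 (permutation tests with 100000 resamples, p = 0.00078 and 0.00121, adjusted over the 11 genes 0.00858 and 0.0133). Without the 2 pigs farthest from the median r was 0.62, within the LFC pigs it was -0.04 and within the HFC pigs 0.67. No test was made within a group or between these 2 values, and r is imprecise over so few pigs. With TSHB r was -0.66 and rho -0.45 (permutation tests, adjusted p = 0.0479 and 0.188), and r was -0.24 without the 2 farthest pigs, so that it rested on these. Within the LFC pigs it was 0.05 and within the HFC pigs -0.91. With POMC r was -0.60 (permutation test, adjusted p = 0.0617), within the LFC pigs 0.07 and within the HFC pigs -0.61, and the other 8 genes had an adjusted p above 0.1 for both measures. PRL itself was higher and POMC lower in the HFC pigs. The group and the level of PRL or POMC therefore cannot be told apart in the pooled values.

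The genes whose expression over the 16 pigs was most like that of SNAP25 were NSG2 (r = 0.82), KCNK2 (0.79), ENSSSCG00000031883 (0.79), DYNC1LI1 (0.77) and BABAM2 (0.73), given as a description over pigs that share no library. They were picked as the highest r over all genes tested. These r were not set against those that so many genes give by chance over 16 pigs.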
